A study of Mus musculus with 10 samples.

Results

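Transcripts of captured ameloblasts were compared between claudin-10 knockout (KO) and wild-type (WT) mice in 5 of the 10 libraries of the series, 3 of KO and 2 of WT genotype. The other 5 libraries hold the stratum intermedium, the cell layer behind the ameloblasts. They serve here for side-by-side values and for a test of whether the KO difference differs between layers. All libraries were made from polyA RNA of cells cut by laser from frozen sections of mouse hemi-mandibles. The rule for members took the ameloblast table alone and every gene with a mean normalized count of 10 or more over its 5 libraries, which kept 16212 of 16292 listed genes. The WT group is WT replicates 1 and 2 (library names beginning Wt10 and Wt5), and the KO group is KO replicates 1, 2 and 3 (KO1, KO9 and Ko3). The labels give the genotypes as WT and KO Claudin 10. They give no age, strain or sex, nor the deleted part of Cldn10 or whether the deletion was in all tissues. Nothing in them says that each library came from its own mouse, so the p-values rest only on the spread among these libraries, which may be a technical one. Values of single libraries are given below in the order WT replicate 1, WT replicate 2, then KO replicates 1, 2 and 3.

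Ameloblasts are the tall epithelial cells that build tooth enamel. In the secretory stage they release amelogenin, ameloblastin and enamelin, which the protease enamelysin trims, and in the maturation stage they move mineral ions and acid and remove the matrix. They stand shoulder to shoulder, joined by tight junctions at both ends of the cell and by desmosomes and gap junctions along it. The stratum intermedium is tied to them by desmosomes and is rich in alkaline phosphatase. Claudins are the tetraspan proteins of tight junction strands, and claudin-10 is known for forming paracellular ion channels, with a cation-selective and an anion-selective form made from alternative first exons.

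The libraries differed in ways that the genotype did not explain. Their normalized counts summed to between 22135034 and 26856177, and the number of genes listed at 0 ranged from 33 in WT replicate 2 to 706 in WT replicate 1. On the log2 scale the 2 WT libraries had the lowest correlation across genes of any pair, r = 0.859, while KO replicate 3 and WT replicate 2 had the highest, 0.943 (genes are not independent replicates). Those 2 libraries share group number 1 in their library names, and WT replicate 1 and KO replicate 2 share number 2. KO replicate 1 alone has number 3. The labels do not explain the number. Xist stood at 5791 and 6616 in KO replicates 1 and 3 and at 33.2 or less in the other 3 libraries, and Ddx3y was at 0 in those 2 KO libraries and at 1980 or more in the others. The WT libraries and KO replicate 2 therefore carried Y-linked transcripts and KO replicates 1 and 3 did not.

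Cldn10 (ENSMUSG00000022132, GRCm38 chromosome 14, 118787908 to 118875489, plus strand) was lower in each KO library than in either WT library. Its normalized counts were 600.1 and 751.8 in WT, and 280.1, 148.7 and 407.8 in KO. The KO level was thus 38.4% of that in WT, taken from the log2 difference of -1.38 (SE 0.46) between values with 1 added. The exact permutation test over the libraries gave p = 0.2, two-sided, where 0.1 is the smallest that 2 against 3 allows. The difference ran from -0.97 with library weights to -2.17 with the sex-linked pattern as a covariate. That covariate leaves KO replicate 2 alone against the WT mean. As the deleted part is not given, transcript from outside it would count in these values. KO replicate 3 stood closest to WT and KO replicate 2 farthest from it. Among the captured stratum intermedium libraries Cldn10 stood at 7257 and 2365 in WT and at 1003, 464.7 and 387.1 in KO, in the same order of library prefixes. The 2 tables were normalized separately, so these levels are set side by side and not tested. The log2 difference between KO and WT there was -2.87 (SE 0.56). The gap between the differences of the 2 layers was 1.49 (SE 1.01; limma, adjusted p = 0.864).

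RefSeq lists 2 start sites for Cldn10, and the table sums reads over the whole gene, so the remaining KO signal cannot be assigned to either. The 250 bases before each start are shown with those of Cnnm4 and Cldn6, a magnesium transporter gene and a claudin gene that stood higher in KO (below), all from the plus strand of GRCm38.p6 and written 5′ to 3′. Capitals mark a GC box (GGGCGG on either strand), the binding motif of Sp-family factors.
Cldn10, upstream start (chr14:118787621-118787870): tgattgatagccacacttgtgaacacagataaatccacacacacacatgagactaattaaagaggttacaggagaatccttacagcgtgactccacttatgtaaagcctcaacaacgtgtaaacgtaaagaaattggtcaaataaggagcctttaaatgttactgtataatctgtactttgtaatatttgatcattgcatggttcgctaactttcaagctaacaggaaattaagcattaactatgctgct
Cldn10, downstream start (chr14:118854700-118854949): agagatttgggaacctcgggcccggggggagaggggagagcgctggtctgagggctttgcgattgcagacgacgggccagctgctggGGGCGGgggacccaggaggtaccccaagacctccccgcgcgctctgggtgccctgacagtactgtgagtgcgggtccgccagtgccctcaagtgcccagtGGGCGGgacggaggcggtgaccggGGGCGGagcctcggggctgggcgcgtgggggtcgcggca
Cnnm4 (chr1:36471347-36471596): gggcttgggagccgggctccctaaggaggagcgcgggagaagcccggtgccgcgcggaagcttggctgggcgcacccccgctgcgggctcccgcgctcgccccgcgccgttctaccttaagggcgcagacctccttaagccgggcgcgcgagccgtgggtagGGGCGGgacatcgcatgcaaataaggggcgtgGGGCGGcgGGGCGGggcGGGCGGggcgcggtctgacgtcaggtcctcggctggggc
Cldn6 (chr17:23679115-23679364): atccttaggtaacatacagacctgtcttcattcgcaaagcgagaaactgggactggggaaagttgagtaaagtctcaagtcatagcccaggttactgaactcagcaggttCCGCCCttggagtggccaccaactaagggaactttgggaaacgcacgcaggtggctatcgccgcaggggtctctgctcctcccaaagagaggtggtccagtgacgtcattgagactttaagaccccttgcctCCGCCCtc
Of the 2 Cldn10 windows, the downstream one holds a GC box. A GC box was present in the windows of 10 of 16 matched genes among the 20 named below as higher in KO, in 5 of 16 among the 20 named as lower, and in 58.1% of the 11437 tested genes that matched. An AP-1 site (TGANTCA) was in 0 of both sets and in 4.36% of tested genes, and a TATA box (TATAAA) was in 0 and 1 and in 6.65%. These are matches of letters on either strand, counted at the first start listed for each gene.

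The 4 defining ameloblast transcripts were abundant in all 5 libraries, and none separated the genotypes. Amelx, which encodes amelogenin, stood at 905195 and 460452 in WT, and at 1704036, 387348 and 691203 in KO. Ambn, the ameloblastin gene, stood at 111434 and 63797, and at 300367, 54041 and 91477. Enam, the enamelin gene, ranged from 26559 in KO replicate 2 to 405084 in KO replicate 1. The protease gene Mmp20 stood at 23575 and 10753, and at 38052, 13461 and 21874. In each of the 4, KO replicate 1 was the highest library, and KO replicate 2 was below WT replicate 1. Together they made up 4.67% and 2.65% of the WT libraries and 9.11%, 2.18% and 3.79% of the KO libraries. The log2 differences lay between 0.25 (SE 0.72, Amelx) and 0.49 (SE 0.51, Mmp20). The directions followed single libraries: without KO replicate 1 the differences of Amelx, Ambn and Enam were -0.32, -0.26 and -0.75. The captures also held RNA of other tissue. The 11 odontoblast and pulp markers, genes of the dentin-forming cells and their neighbours, made up 5.07% and 8.14% in WT and 4.44% to 6.6% in KO, more than the 4 ameloblast markers in every library except KO replicate 1. In such bulk libraries, fewer cells of a type and less RNA per cell cannot be told apart.

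No gene passed correction over the 16212 genes. With limma the smallest adjusted p was 0.9895, 0 genes (0%) had an adjusted p under 0.05, and 498 (3.07%) had an unadjusted p under 0.05. Of these, 365 (2.25%) were higher and 133 (0.82%) lower in KO. All 3 KO libraries stood above both WT libraries for 1473 genes (9.09%) and below both for 1502 (9.26%). Those 2 counts are nearly equal. Both shares lie under 0.1, which is the share of 1 among the 10 possible arrangements of 2 against 3 libraries. The small p-values lean towards genes higher in KO. The lean was present at each level of expression, from 49 higher against 10 lower among genes with a mean of 10 to 50, to 107 against 19 at 1000 to 5000 and 16 against 12 above 5000. Of the 365, 37 were at 0 in a WT library, and of the 133, 3 were at 0 in a KO library. Genes were listed if they had at least 10 in 3 or more libraries. A gene present only in the 3 KO libraries could thus be listed, and one present only in the 2 WT libraries could not. The part of this filter in the lean was not tested. Without KO replicate 1 the counts were 176 higher and 69 lower, without KO replicate 2 they were 274 and 200, without KO replicate 3 they were 154 and 111, and without WT replicate 1 or 2, which leaves 1 WT library, 916 and 396 or 1271 and 219. With the sex-linked pattern as a covariate the split turned towards genes lower in KO. That covariate leaves KO replicate 2 alone against the WT mean, as the other KO libraries differ from WT in the pattern. The genes described next are therefore ordered by p and described by their libraries, and none is past the threshold.

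Among genes whose KO libraries all exceeded WT, the 20 with the smallest p had log2 differences of 1.01 to 3.54 (median 1.73; unadjusted p of 0.000107 to 0.00514 in limma). They are described below by the known role of their products. The plot of these genes by library shows the 2 WT values to the left of the 3 KO values in each row.

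**Figure D1:**
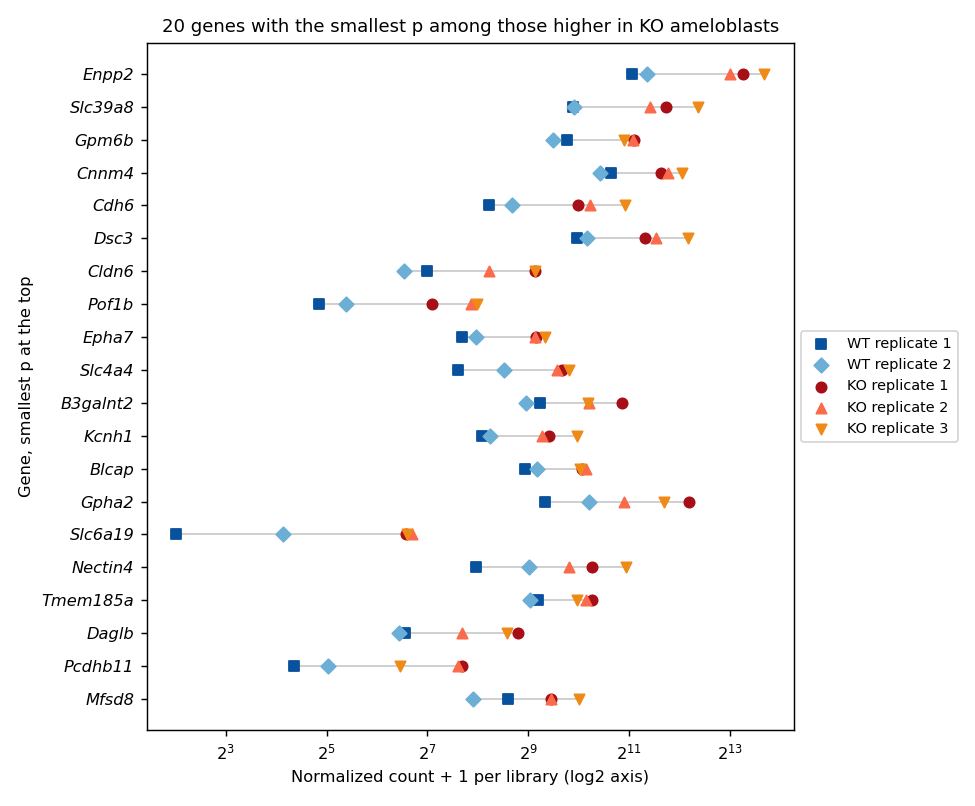
Normalized count + 1 in each of the 5 ameloblast libraries (log2 axis) for the 20 genes with the smallest p among those higher in KO. Squares and diamonds are the 2 WT libraries and circles and triangles the 3 KO libraries. Enpp2, at the top, stands at 2132 and 2626 in WT and between 8199 and 13167 in KO.

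Transporter genes are described first. Slc39a8 encodes a carrier that imports zinc and manganese, and it stood at 949.1 and 967 in WT and at 3409, 2730 and 5289 in KO (log2 difference 1.93, SE 0.31). Cnnm4, a magnesium transporter gene whose loss causes amelogenesis imperfecta with retinal dystrophy, stood at 1611 and 1367, and at 3184, 3499 and 4232 (1.28, SE 0.23). The lowest KO library of each was above both WT libraries, which the rule for naming them required. That gap was wider than the distance between the WT libraries. The sodium bicarbonate cotransporter gene Slc4a4, part of the pH control of maturing enamel, stood at 194.2 and 364.5, and at 820.6, 764.5 and 900.1 (1.63, SE 0.35). Kcnh1, a voltage-gated potassium channel gene, stood at 269.1 and 303.1, and at 679.7, 618 and 1007 (1.39, SE 0.32). Slc6a19, a carrier of neutral amino acids, was low throughout, at 3.05 and 16.6 in WT and at 94.2, 102 and 96 in KO (3.54, SE 0.85). Mfsd8, a gene for a lysosomal membrane protein lost in a childhood neurodegenerative disease, stood at 385.9 and 238, and at 696, 703.7 and 1032 (1.39, SE 0.35).

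Adhesion and junction genes formed the next group. Dsc3, a desmosomal cadherin gene, stood at 1003 and 1143 in WT and at 2572, 2987 and 4616 in KO (log2 difference 1.62, SE 0.30). Cdh6, a classical cadherin gene, stood at 297 and 409.5, and at 1014, 1200 and 1949 (1.93, SE 0.35). KO replicate 3 was the highest library for both, and for Nectin4 too. Nectin4 encodes an immunoglobulin-type adhesion protein of adherens junctions and stood at 247.8 and 514.7, and at 1236, 891.8 and 1965 (1.85, SE 0.45). The claudin gene Cldn6 stood at 125.6 and 91.7, and at 563.7, 298 and 559.8 (2.07, SE 0.43). Pof1b, whose product binds actin and lies at junctions, stood at 27.7 and 41.1, and at 135.1, 231 and 252.8 (2.52, SE 0.53). The protocadherin gene Pcdhb11 stood at 19.5 and 31.8, and at 204.3, 193.7 and 86.3 (2.55, SE 0.63). Cldn6, Pof1b and Pcdhb11 are thus low transcripts, while Dsc3 lies above 1000 in every library.

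The rest of the 20 were signalling genes and genes of other roles, and they included the gene with the smallest p. Enpp2 encodes autotaxin, which makes lysophosphatidic acid outside the cell, and stood at 2132 and 2626 in WT and at 9829, 8199 and 13167 in KO (log2 difference 2.11, SE 0.27). Epha7, an ephrin receptor gene, stood at 205.4 and 248.8, and at 567, 563.1 and 644 (1.38, SE 0.29). Gpha2, which encodes the alpha subunit of the hormone thyrostimulin, stood at 645.4 and 1184, and at 4693, 1911 and 3331 (1.83, SE 0.44). The spread of Gpha2 within KO was more than that between WT replicate 2 and KO replicate 2. Gpm6b, a gene of the proteolipid family of membrane proteins, stood at 869.6 and 720.7, and at 2211, 2174 and 1921 (1.41, SE 0.23). Daglb, a diacylglycerol lipase gene, stood at 93.2 and 85.5, and at 442.6, 206 and 380.7 (1.86, SE 0.45). B3galnt2, a glycosyltransferase gene of dystroglycan glycans, stood at 605.7 and 496.4, and at 1874, 1183 and 1172 (1.32, SE 0.30). The small membrane protein genes Blcap and Tmem185a completed the 20, with log2 differences of 1.02 (SE 0.24) and 1.01 (SE 0.25).

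The 20 genes with the smallest p among those whose KO libraries were all under WT had log2 differences of -0.89 to -2.73 (median -1.67; unadjusted p of 0.00361 to 0.0144 in limma). They too are described by the known role of their products.

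**Figure D2:**
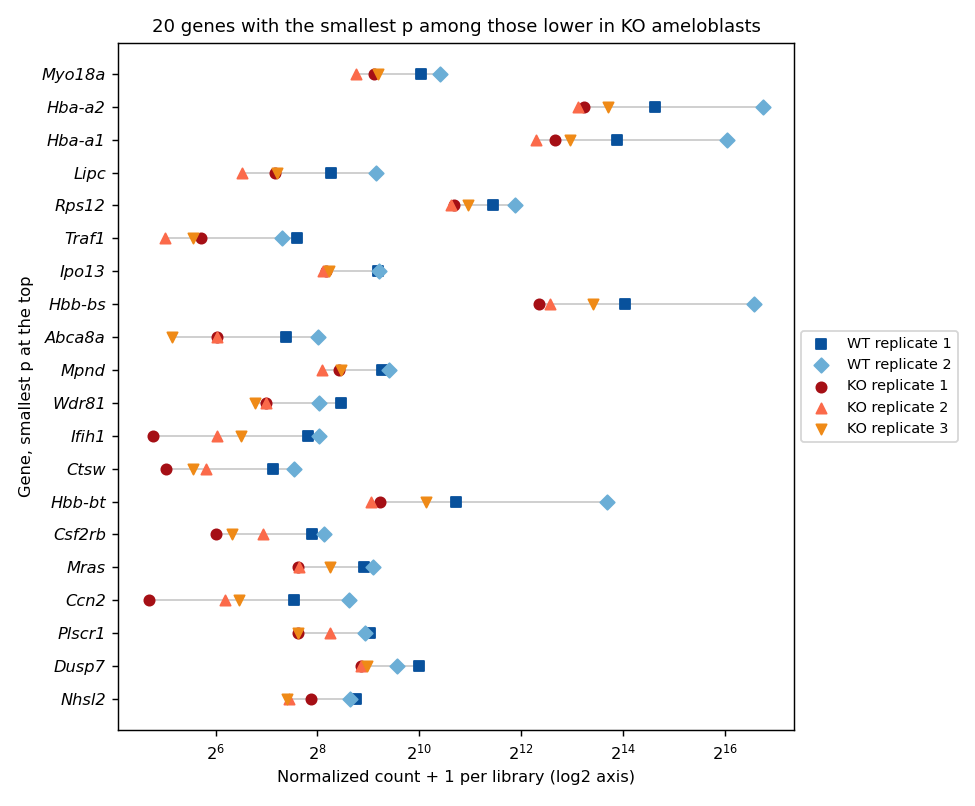
Normalized count + 1 in each of the 5 ameloblast libraries (log2 axis) for the 20 genes with the smallest p among those lower in KO. Squares and diamonds are the 2 WT libraries and circles and triangles the 3 KO libraries. In the 4 globin rows WT replicate 2 lies far to the right of the other libraries, and Hba-a2 reaches 109911 there.

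Globin genes, which are transcribed in red blood cells, filled 4 of the 20 places. Hba-a2 stood at 25165 and 109911 in WT and at 9570, 8885 and 13336 in KO (log2 difference -2.33, SE 0.58). Hba-a1, Hbb-bs and Hbb-bt had differences of -2.33, -2.54 and -2.73, and the alpha and beta pairs are near-identical copies whose reads the counting may split. In all 4 the WT libraries differed from each other by more than WT replicate 1 did from KO replicate 3. The red blood cell list as a whole (5 of 7 genes measured) made up 0.244% and 1.28% in WT and 0.0814% to 0.144% in KO, and its median log2 difference was -2.33, or -1.25 without WT replicate 2.

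Immune and inflammatory genes made up another part. Ifih1, the RNA sensor MDA5, stood at 223.4 and 261 in WT and at 26.5, 64 and 89.6 in KO (log2 difference -2.15, SE 0.63). Traf1, an adaptor of tumour necrosis factor receptors, stood at 192 and 157.2, and at 51.6, 31.3 and 46.4 (-2.02, SE 0.54). The cathepsin gene Ctsw, a marker of cytotoxic lymphocytes, stood at 138.7 and 185.2, and at 31.6, 54.9 and 46.3 (-1.87, SE 0.55). For these 3 genes every KO library was under both WT libraries, which the rule for naming them required. Csf2rb, the shared receptor chain of several cytokines, stood at 235.4 and 279.7, and at 63.3, 121.6 and 78.7 (-1.59, SE 0.47). Plscr1, an interferon-inducible scramblase gene, had a difference of -1.15 (SE 0.35). Myeloid and immune markers (11 of 12 measured) made up 0.0188% and 0.0506% in WT and 0.0144% to 0.0287% in KO, and Csf1r, the macrophage growth factor receptor gene, stood at 1526 and 3100, and at 718.5, 1358 and 1071. The part of blood and immune cells in these differences was not tested.

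The other genes lower in KO act inside the cell or in lipid and matrix biology. Myo18a, an unconventional myosin gene, had the smallest p on this side and stood at 1047 and 1352 in WT and at 552.2, 430.7 and 579.7 in KO (log2 difference -1.20, SE 0.28). Rps12, a protein of the small ribosomal subunit, stood at 2797 and 3771, and at 1651, 1586 and 1985 (-0.91, SE 0.24). Ipo13, a nuclear import receptor gene, was even within each group, at 583.5 and 591.8, and at 286.9, 277.2 and 298.5 (-1.03, SE 0.28). Ccn2, which encodes connective tissue growth factor, stood at 185.4 and 395.2, and at 25, 71.8 and 87.6 (-2.30, SE 0.70). Lipc, the hepatic lipase gene, stood at 307.3 and 564, and at 142.2, 90.1 and 146 (-1.75, SE 0.45). The lipid transporter gene Abca8a stood at 165.1 and 257, and at 64.3, 64.7 and 34.4 (-1.96, SE 0.55). These libraries kept tight groups for Ipo13 and loose ones for Ccn2. Mras, a Ras-family GTPase gene, Dusp7, a phosphatase gene of the MAP kinase pathway, Wdr81, Mpnd and Nhsl2 had differences between -0.89 and -1.33.

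Comparisons within a library group number, and between libraries of the same sex-linked pattern, gave the same directions for the 20 genes named on each side. All 20 genes of the first set were higher in KO replicate 3 than in WT replicate 2 (group 1, log2 differences of 0.86 to 2.60) and higher in KO replicate 2 than in WT replicate 1 (group 2, 0.86 to 4.67). All 20 of the second set were lower in both pairs, by -0.59 to -3.54 and by -0.78 to -2.58. Signs and sizes both follow from the choice of these genes in the same libraries, so these values are a description. KO replicate 2, the KO library that like both WT libraries carried Y-linked transcripts, stood 1.04 to 3.61 above the WT mean in the first set. For the second set it stood at -0.73 to -3.15. Each pair is 1 library against 1 and has no test.

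In the stratum intermedium libraries with the same prefixes, the 20 genes higher in KO ameloblasts were split, with 9 higher and 11 lower in KO (median log2 difference -0.12, range -1.11 to 1.29). The KO libraries stood above both WT libraries for 2 of the 20, Tmem185a and Pcdhb11, against 7.57% of the 15567 genes tested in both layers, which is a share near that background. Enpp2 stood there at 27670 and 9404 in WT and at 19608, 13403 and 7973 in KO. Dsc3 stood at 8979 and 2973, and at 5777, 5199 and 3219. Of the 20 genes lower in KO ameloblasts, 14 were lower in the stratum intermedium too (median -0.44), against 48.6% of genes tested in both layers. For 3 of these 20, Abca8a, Ctsw and Ifih1, all 3 KO libraries were under both WT libraries there, against 7.49% of the 15567 genes. The counts of 2 and 3 are both small, and the layers share library prefixes. These counts are therefore a description and not independent support. Abca8a stood at 296.4 and 462.1 in WT and at 75.3, 124.2 and 114.3 in KO stratum intermedium. A test of the difference between layers, on the ameloblast minus stratum intermedium value of each prefix, called 0 of 15567 genes (0%; limma, smallest adjusted p = 0.2629), with 747 (4.8%) at an unadjusted p under 0.05. Of the 20 and 20 genes, 8 and 10 were at that unadjusted level, but they were chosen for their ameloblast difference, which is 1 of the 2 terms.

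**Figure D3:**
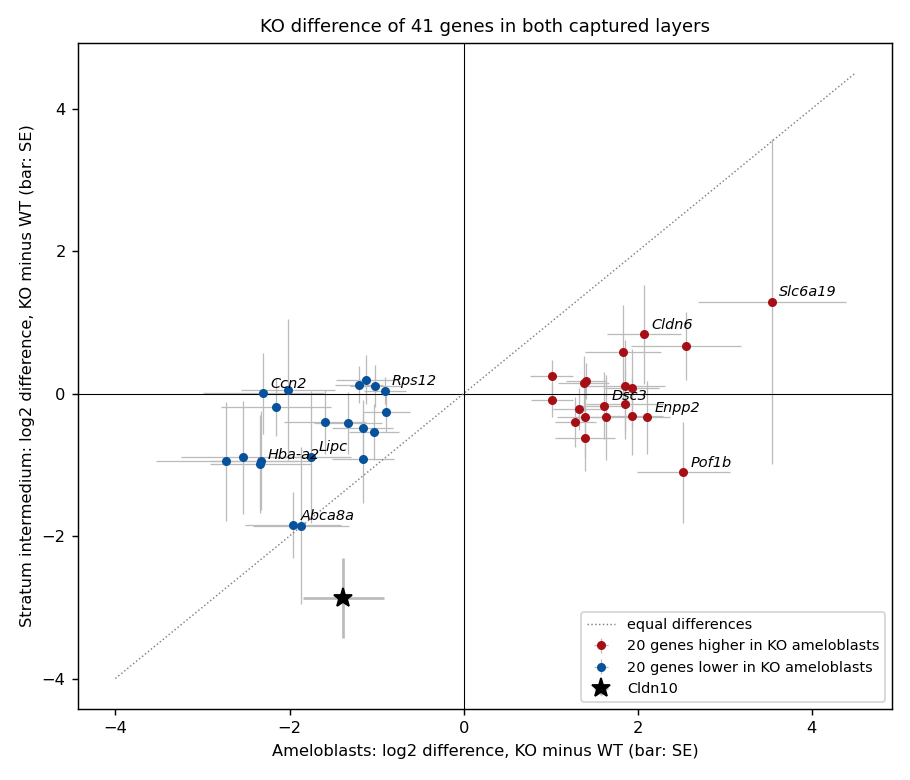
Log2 difference, KO minus WT, in ameloblasts (horizontal) and in the stratum intermedium (vertical) for the 20 genes higher in KO ameloblasts (red), the 20 lower (blue) and Cldn10 (star), with standard errors from limma. The red points lie around 0 on the vertical axis, between -1.11 and 1.29, and Cldn10 lies lower than every other point there, at -2.87.

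Levels of the 20 genes higher in KO were then set beside those of the other layer. Both WT stratum intermedium libraries were above both WT ameloblast libraries for 18 of the 20, against 24.3% of the 15585 genes listed in both tables. The low WT ameloblast values helped to choose these genes, and the tables were normalized separately, so the count is a description. Both WT stratum intermedium libraries stood above all 3 KO ameloblast libraries for 2 of the 20. The stratum intermedium and papillary layer list, which was chosen with earlier results of these data known and shares several of the named genes, had all 13 members higher in KO ameloblasts (median log2 difference 0.94), 7 of them at an unadjusted p under 0.05, where all tested genes gave 53% higher and 2.25%. Besides Enpp2, Cdh6, Dsc3 and Nectin4 these were Dsg1a, Krt17 and Gja1. Gja1, the gene of connexin 43 and the most abundant of the 13, stood at 75642 and 36407 in WT and at 94606, 109973 and 97233 in KO. Alpl, the alkaline phosphatase gene that defines this layer and is named here after its values were seen, overlapped between the groups, at 6714 and 12402, and at 14345, 11710 and 15829. The 13 genes summed to 0.818% and 0.351% of the WT libraries and to 0.81% to 0.909% of the KO libraries, so the summed level of WT replicate 1 lay within the KO range. How much of the difference comes from stratum intermedium cells in the captures was not tested.

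Junction genes were described by lists. Apart from Cldn10 itself, 11 claudins were measured, and 8 of them had higher values in KO (median log2 difference 0.70, against 0.04 over all tested genes), where all tested genes gave 53%. At an unadjusted p under 0.05 were 4, against 2.25% of all tested genes. Besides Cldn6 these were Cldn1, a barrier claudin gene, at 244 and 806.1 in WT and at 1343, 967.4 and 2218 in KO, Cldn8, at 267.2 and 94.2, and at 390.3, 441.7 and 444.7, and Cldn4, at 77.1 and 205.9, and at 210.9, 361 and 504.4. For Cldn4, named after its values were seen, the WT replicate 2 and KO replicate 1 values nearly meet. The claudin median ran from 0.52 without KO replicate 1 to 1.25 without KO replicate 2, and was 1.45 with library weights. Other tight junction and polarity genes had 17 of 28 higher and a median of 0.22 (-0.13 without WT replicate 2). The tight junction genes F11r and Ocln were among them, F11r at 2557 and 1601, and at 4309, 3604 and 3440, and Ocln, the occludin gene, at 75.8 and 224.8, and at 299.7, 586.3 and 637.7. Desmosome and hemidesmosome genes had 15 of 19 higher (median 0.32). Their median was 0.07 without WT replicate 2, 0.13 without KO replicate 3, and -0.11 in the pair of library group 2. The list had Dsc3, Pof1b and Dsg1a at an unadjusted p under 0.05 on the higher side and Evpl, the envoplakin gene (named after its values were seen), on the lower side, at 1010 and 641.1, and at 524.2, 399.3 and 474.9. Adherens and gap junction genes had 13 of 19 higher (median 0.22), a median that was -0.08 without WT replicate 2 and 0.34 without KO replicate 1.

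**Figure D4:**
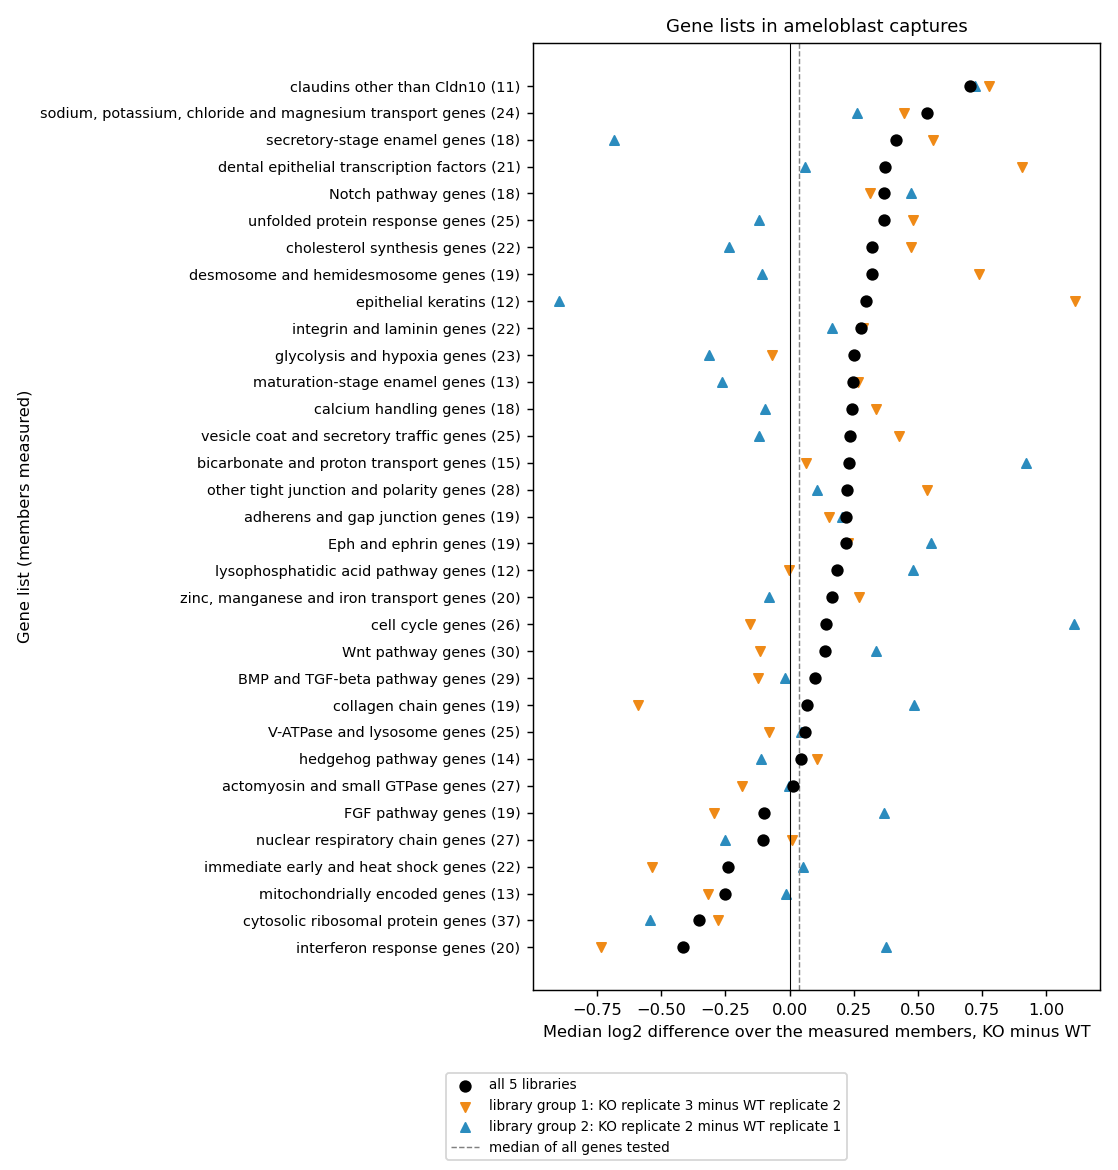
Median log2 difference, KO minus WT, over the measured members of each gene list in ameloblast captures, from all 5 libraries (black circles) and from the single pairs of library groups 1 and 2 (triangles), with the median of all tested genes (0.04) as a dashed line. The black circles run from -0.42 for interferon response genes to 0.70 for claudins, and the triangles of group 2 lie lower than 0 for secretory-stage enamel genes (-0.68) and keratins (-0.90).

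Transport, signalling and transcription factor lists mostly leaned to the KO side without any member past the threshold. Sodium, potassium, chloride and magnesium transport genes had 20 of 24 higher (median 0.53), but 13 of 24 and a median of 0.16 without WT replicate 1. Of these genes only Cnnm4 was at an unadjusted p under 0.05 in limma. Among bicarbonate and proton transport genes, 10 of 15 were higher (median 0.23), but 6 of 15 without WT replicate 1 (median -0.13). Slc26a7 of this list, an anion exchanger gene of maturing ameloblasts, stood at 253.5 and 476.3 in WT and at 532, 781.6 and 665.8 in KO. Zinc, manganese and iron genes had 13 of 20 higher (median 0.17), but 8 of 20 without WT replicate 2 (median -0.14). Slc30a7, a zinc carrier of the Golgi, stood at 2242 and 1226, and at 4594, 3178 and 2595. Fth1, the ferritin heavy chain gene, was lower, at 32357 and 38133, and at 17186, 21750 and 22813. Notch pathway genes were higher in 15 of 18 cases (median 0.37), with the target gene Heyl at 460.6 and 358.5, and at 794.2, 639.9 and 801.3. Hedgehog genes were split, 8 of 14 higher, though Ptch1, the receptor and target gene, stood at 2048 and 1942, and at 2557, 3559 and 4743. Among dental epithelial transcription factors 17 of 21 were higher (median 0.37). That median was -0.072 without WT replicate 2, 0.99 without WT replicate 1 and 0.22 without KO replicate 1. Wnt, BMP and TGF-beta, and FGF pathway genes had 18 of 30, 21 of 29 and 8 of 19 higher, with medians of 0.14, 0.10 and -0.10. The Wnt median was -0.24 without WT replicate 1, and the FGF median ran from -0.61 without WT replicate 1 to 0.23 without WT replicate 2. The BMP and TGF-beta median was 0.034 without WT replicate 2.

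Genes of protein and lipid production leaned to the KO side as well. Unfolded protein response genes had 21 of 25 higher (median 0.37), and the lectin chaperone gene Canx stood at 22974 and 17826 in WT and at 38414, 26921 and 34043 in KO. Vesicle coat and secretory traffic genes also had 21 of 25 higher (median 0.23), with the translocon gene Ssr1 at 16672 and 14834, and at 28176, 21802 and 24341. Cholesterol synthesis genes had 20 of 22 higher (median 0.32), with Cyp51 at 2208 and 1982, and at 4889, 2538 and 4514. KO replicate 2 was the lowest KO library for these 3 genes. In the pair of library group 2 the medians of the 3 lists were -0.12, -0.12 and -0.24, against 0.48, 0.43 and 0.47 in group 1. They were 0.20, 0.14 and 0.20 without KO replicate 1 and 0.67, 0.46 and 0.67 without KO replicate 2. With the sex-linked pattern as a covariate, which leaves KO replicate 2 alone against the WT mean, they were -0.051, -0.028 and -0.16. Secretory-stage enamel genes, with 16 of 18 higher and a median of 0.41, also differed between the pairs, at -0.68 and 0.56, and their median was -0.099 without WT replicate 2, 0.82 without WT replicate 1, 0.08 without KO replicate 1 and 0.80 without KO replicate 2. The ameloblast marker share moved alongside, being highest in KO replicate 1 and lowest in KO replicate 2, and its part was not tested.

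Cytosolic ribosomal protein genes leaned to the WT side. All 37 measured members were lower in KO (median -0.35). For 25 of them the KO libraries were all under WT, against 9.26% of tested genes. Of the 37, 4 were lower at an unadjusted p under 0.05 in limma, against 0.82% of tested genes. Rpl28 stood at 5623 and 6318 in WT and at 4026, 3861 and 4263 in KO, Rps28 at 3729 and 3995, and at 2590, 2758 and 2533, and Rpl38 at 5432 and 5296, and at 3630, 3771 and 4056. Their log2 differences were -0.56 (SE 0.20), -0.56 (SE 0.20) and -0.49 (SE 0.20). The list median stayed between -0.25 and -0.52 under every setting and single library left out, and was -0.28 and -0.55 in the pairs of groups 1 and 2. Without WT replicate 1, 2 of the 37 were higher, and without KO replicate 2, 1 was. Genes of 1 complex are not independent observations, and many have near-identical pseudogenes that can share reads. In the stratum intermedium the same list had a median of 0.02. In the test between layers 0 of the 37 were at an unadjusted p under 0.05 (limma), against 4.8% of genes. Nuclear respiratory chain genes had 18 of 27 lower (median -0.10), and mitochondrially encoded genes 10 of 13 (median -0.25). The first median was 0.016 without KO replicate 2, with 14 of 27 higher. The second was -0.043 without WT replicate 2, -0.44 without WT replicate 1 and -0.14 without KO replicate 1.

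Interferon response genes (14 of 20 lower, median -0.42) and immediate early and heat shock genes (16 of 22 lower, median -0.24) leaned to the WT side. Ifit3, an interferon-induced gene, stood at 505.7 and 576.5 in WT and at 54.1, 321.5 and 254.4 in KO, and Ier3, an immediate early gene, at 1142 and 1233, and at 301.9, 840.4 and 614.8. KO replicate 1 was the lowest library for both. Leaving out WT replicate 2 gave an interferon median of 0.15, leaving out WT replicate 1 gave -1.12, and it was -0.73 and 0.37 in the pairs of groups 1 and 2. Cell cycle genes had 15 of 26 higher (median 0.14) and 0 members at an unadjusted p under 0.05 in limma, and their median was -0.34 without WT replicate 1, 0.78 without WT replicate 2 and 0.026 without KO replicate 2.

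Markers of other tissues in the captures differed between libraries of the same genotype. Osteoclast markers, of the cells that resorb bone, made up 0.348% and 0.763% in WT and 0.103%, 0.456% and 0.272% in KO, so that KO replicate 2 lay between the WT libraries. All 8 were lower in KO on the log2 scale (median -1.01), but the median was -1.65 in the pair of group 1 and 0.43 in that of group 2, and it was -0.47 without WT replicate 2, -1.72 without WT replicate 1 and -0.65 without KO replicate 1. Skeletal muscle markers were lowest in WT replicate 1 (0.0202%, with Tcap, Mb, Myh1 and Myh2 at 0) and highest in WT replicate 2 (0.387%). Fibroblast and endothelial markers were likewise lowest in WT replicate 1 and highest in WT replicate 2, with the KO libraries between. Mepe, an osteocyte gene, was lower in KO, at 769.9 and 1265 in WT and at 93, 447.8 and 295.7 in KO, with 3 of 9 osteoblast and osteocyte markers higher and 6 lower.

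**Figure D5:**
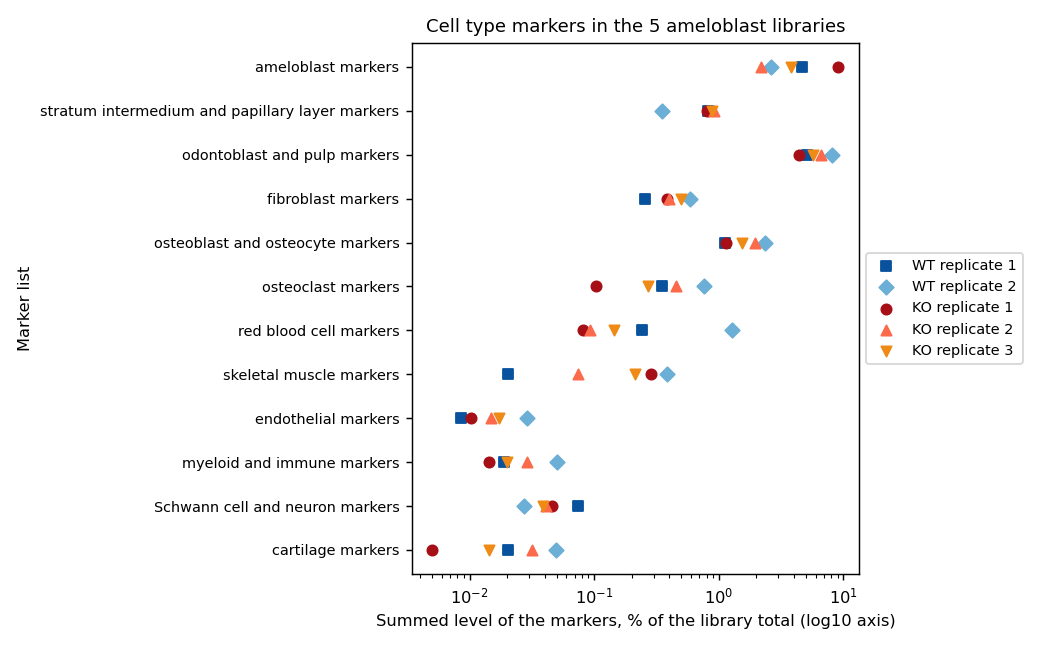
Summed level of each cell type marker list as a percentage of the library total (log10 axis) in the 5 ameloblast libraries. The red blood cell list is the one in which both WT libraries lie to the right of all 3 KO libraries, at 0.244% and 1.28% against 0.144% or less.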

How the data were processed

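Frozen sections were cut by laser and stranded polyA libraries were made, per the labels' protocols. The submitters' processing notes name FastQC, STAR 2.5.2b, Picard 2.8.1, featureCounts, DESeq and GRCm38, with no further settings. The deposited tables hold the authors' normalized signal per gene, here called normalized counts. The values were not whole multiples of a step, so raw counts could not be recovered and no count test was used. The ameloblast table lists genes with at least 10 in 3 or more libraries.

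Values were taken as log2(value + 1), since a pseudocount of 1 keeps zeros but understates differences of low genes. Genes with a mean of at least 10 were fitted with limma 3.58.1 (trended variance, R 4.3.3), 3 KO against 2 WT libraries, and p-values were adjusted by Benjamini-Hochberg over all 16212 genes. The code was tested on simulated data. The difference between layers was tested on the log2 gap between the 2 captures of each library prefix. Genes were named by rule: Cldn10, the 4 enamel markers, the sex-linked genes, the 10 most abundant genes, the 3 members with the smallest p of each list, and, among genes with a mean of at least 50 whose groups did not overlap, the 20 with the smallest p in each direction. Not all of these are printed. The members and the gene lists were chosen with earlier results of these data known. Promoter windows came from RefSeq (GRCm38.p6). Other pseudocounts, filters, scalings, variance models, library weights, blocks and single libraries left out were tried.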

Additional observations from a re-analysis of the deposited data

How the results depend on the processing

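With 2 WT libraries the spread within WT rests on 1 difference, and leaving out a WT library assumes that the lone one varies like the KO libraries. With single libraries left out, the number of genes with an unadjusted p under 0.05 ran from 154 to 1271 for genes higher in KO and from 69 to 396 for genes lower in KO. The number past an adjusted p of 0.05 ran from 0 to 1, the 1 being Tcap, a muscle gene at 0 in WT replicate 1, without WT replicate 2. With the sex-linked pattern as a covariate 176 genes were higher and 455 lower. With the replicate number as a block 219 genes were higher and 135 lower. The differences in that fit are those without KO replicate 3, which alone has its number. Deviations of same-numbered libraries from their group means had r = 0.0862 and -0.116. The library group pairs had r = 0.273 and 0.116. With 2 WT libraries, 1 WT deviation is the negative of the other, so -0.116 and 0.116 are the same value with opposite signs. These r values therefore cannot tell which libraries pair. With the library group as a block 249 genes were higher and 104 lower. Its differences are those without KO replicate 1, which has a group number of its own. Cldn10 ran from -0.99 to -1.71 with single libraries left out, the latter without KO replicate 3 and so with the replicate block too. No gene passed the adjusted threshold for a difference between layers under any alternative tried. The cause of these shifts was not tested.

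Directions turned for these genes. The library group block gives the same differences as leaving out KO replicate 1. With it, Amelx was -0.32, Ambn -0.26 and Enam -0.75. The sex-linked covariate leaves KO replicate 2 alone against the WT mean. In that fit Amelx was -0.74, Ambn -0.64, Enam -1.47 and Mmp20 -0.24. With single libraries left out, Amelx ran from -0.32 (without KO replicate 1) to 0.75, Ambn from -0.26 (without KO replicate 1) to 0.98, Enam from -0.75 (without KO replicate 1) to 1.21, Mmp20 from -0.075 (without WT replicate 2) to 1.06 and Tcap from -0.18 (without WT replicate 1) to 8.99 (without WT replicate 2). Without WT replicate 2, Amelx was -0.23. Of the 45 gene lists, the median changed sign in 16 without WT replicate 2, in 11 without WT replicate 1, in 13 with the sex-linked covariate and in 3 under quantile normalization.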
